A study of Rattus norvegicus with 6 samples.

Results

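Insulin and the insulin-like growth factors are secreted peptides that act on tyrosine kinase receptors, and the genes of this signalling route were followed in rat hippocampal slices in which inhibition had been blocked with gabazine. The members were 10 genes of the route, of 14218 genes with a single symbol on the array, and they were measured by 23 probe sets of 31099. They were chosen by name, as all probe sets whose only gene symbol in the platform annotation is Irs1, Irs2, Igf1, Igf2, Igf1r, Igf2r, Insr, Igfbp3, Igfbp4 or Igfbp5. Organotypic cultures, slices of tissue that survive outside the animal with their local circuits, were prepared from hippocampi of Wistar rats, for which the labels give postnatal day 4. Gabazine-treated cultures received 20 µM of gabazine, an antagonist of the GABA-A receptor, for 90 min, and control cultures were left untreated. There were 3 gabazine and 3 control samples, each replica splitting the cultures of 2 littermates between the treatments, and the 2 arrays of a replica number are a pair below. The culture is bulk tissue of neurons, glia and other cells, so that for any gene fewer cells of a type and less RNA per cell cannot be told apart.

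Insulin receptor substrates, which the genes Irs1 and Irs2 encode, are docking proteins. The activated receptor phosphorylates them, and they recruit phosphatidylinositol 3-kinase, which leads to the kinase Akt, to growth and to the control of FoxO transcription factors. In the brain Igf1 is known for its effects on neuronal growth and survival, Igf2 is made largely by the choroid plexus and the meninges, and Irs2 is known from mice for its part in brain growth and synaptic plasticity. The IGF binding proteins hold the ligands outside the cell, and the Igf2 receptor takes Igf2 up for degradation.

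The oligonucleotides with which the study measured Irs2 by RT-PCR are shown first, since the results turn on this transcript. The RT-PCR values were not used here.
Irs2 left primer: agcatccacagccaggagac
Irs2 right primer: gcccgcagcactttactcttt
The RefSeq promoter table, in the build GRCr8, held 10 windows of 300 bases around the annotated starts of 9 members, all but Irs2, with 2 of them for Igf2. Those of Irs1 and Igf1 are shown because Irs1 was higher and Igf1 was lower in every pair. Capitals mark the letters GGGCGG, a core bound by Sp1 factors, read on either strand.
Irs1 promoter, chr9:91053910-91054209, minus strand: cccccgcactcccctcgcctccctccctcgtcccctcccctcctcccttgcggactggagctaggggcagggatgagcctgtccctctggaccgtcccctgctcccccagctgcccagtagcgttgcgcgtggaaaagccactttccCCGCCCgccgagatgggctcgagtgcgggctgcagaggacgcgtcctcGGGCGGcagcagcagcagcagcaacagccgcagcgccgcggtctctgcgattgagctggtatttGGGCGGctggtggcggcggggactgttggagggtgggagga
Igf1 promoter, chr7:24172282-24172581, plus strand: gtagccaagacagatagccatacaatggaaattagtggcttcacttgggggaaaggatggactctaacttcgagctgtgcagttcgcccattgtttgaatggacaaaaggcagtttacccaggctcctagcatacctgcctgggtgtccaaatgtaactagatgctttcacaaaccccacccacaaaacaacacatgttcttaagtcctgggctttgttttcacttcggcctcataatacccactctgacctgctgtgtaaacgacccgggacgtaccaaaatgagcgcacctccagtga
The Irs1 window held GGGCGG 3 times and the Igf1 window 0 times. It stood in 5 of the 10 member windows, those of Irs1, Igf1r and Igf2r and both of Igf2, against 33.1% of 33469 promoter windows of this length. The cAMP response element TGACGTCA stood in 0 of the 10 member windows, against 1.83% of all windows. Its shorter core TGACG, which is part of the full element, stood in those of Igf2r and Insr, against 21.2% of all windows. The CArG box, which serum response factor binds, stood in 1 of the windows of Igf2, against 1.64% of all windows. The FoxO core GTAAACA stood in that of Insr, against 3.78% of all windows. All motifs were searched on both strands, and a match is a description of the letters only.

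The values are log2 intensities from Robust Multi-array Average (RMA), and each log2 ratio sets a gabazine array against the control array of its pair (gabazine minus control). The array medians lay between 7.89 and 8.71, with pair 2 lowest in both groups, so that levels were read within pairs. Over all probe sets the log2 ratios spread most in pair 1 (SD 0.475, against 0.247 and 0.230 in pairs 2 and 3). Identical values on the gabazine and control array, or ties, made up 16.1%, 24.1% and 25.7% of the table in pairs 1, 2 and 3. A tie in at least 1 pair was found for 11 of the 23 member probe sets, against 47.4% of all probe sets, and a log2 ratio of 0.00 below is a tie unless it is said to be small. In pair 1 the rat control transcripts of the array, Actb, Gapdh and hexokinase, had larger log2 ratios toward the 5′ end than toward the 3′ end, by 0.38 to 1.70, against -0.25 to 0.04 in pair 2 and -0.12 to 0.10 in pair 3. All 8 of 8 immediate early genes used as a check of the treatment were higher in every pair, with medians of 2.53, 1.85 and 2.51. The summed log2 intensity of 8 excitatory neuron markers was 14.79 to 15.34 on gabazine and 14.39 to 15.54 on control arrays, and that of 9 astrocyte markers was 16.80 to 17.28 on gabazine and 16.73 to 17.21 on control arrays. The table holds no detection measure, so that the absence of a transcript could not be read from it.

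Irs2 stood above its control in every pair. On its annotated probe set, 1371091_at, the log2 intensity was 11.93, 10.45 and 11.32 on the gabazine arrays of pairs 1, 2 and 3, against 10.44, 9.94 and 10.09 on the control arrays. The groups did not overlap, although the lowest gabazine array, that of pair 2, was barely above the highest control array, that of pair 1. The medians of these arrays were 7.89 and 8.63, so that this small gap also holds the difference in level between arrays. All gabazine arrays stood above all control arrays for 1 of the 23 member probe sets and for 0.289% of all probe sets. The log2 fold change of Irs2, the mean over the pairs, was 1.07 (standard error 0.24), which is a ratio of 2.11, with a 95% interval of 0.28 to 1.87. The pairs gave 1.49, 0.50 and 1.23, with pair 2 showing the smallest difference. The largest was in pair 1, in which the control transcripts differed between their 5′ and 3′ ends. The part of that in the Irs2 values was not tested. In limma, with the pair as a block, Irs2 had an unadjusted p of 0.0230 and an adjusted p of 0.747 over all probe sets. Without pair 1 or without pair 3 the unadjusted p was 0.119 and 0.132. By the joint distribution used in the methods, 0.0900% of all probe sets had log2 ratios at least as high in all 3 pairs. The study picked Irs2 for RT-PCR among the highest ratios of these arrays, so that its direction on these arrays is not independent evidence. The RT-PCR itself is a separate assay and is not meant here.

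The platform annotation names no gene for a further probe set, 1397999_at, which the study's supplementary table of the highest ratios assigns to Irs2. Since it entered that table through its ratio on these arrays, its values are given as a description. Its log2 intensity was 10.14, 9.70 and 9.01 on the gabazine arrays of pairs 1, 2 and 3, against 7.99, 7.19 and 7.96 on the control arrays. The groups were clearly apart, and the mean log2 ratio was 1.90, which is a ratio of 3.74. By pair it was 2.15, 2.51 and 1.05. The pairs were thus ordered differently on the 2 probe sets, with pair 2 lowest on 1371091_at and highest on 1397999_at. The difference between the 2 log2 ratios was 0.66, 2.01 and -0.18 in pairs 1, 2 and 3, or 0.83 ± 1.10 (SD, n = 3). Which part of the transcript each probe set reads was not determined.

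**Figure D1:**
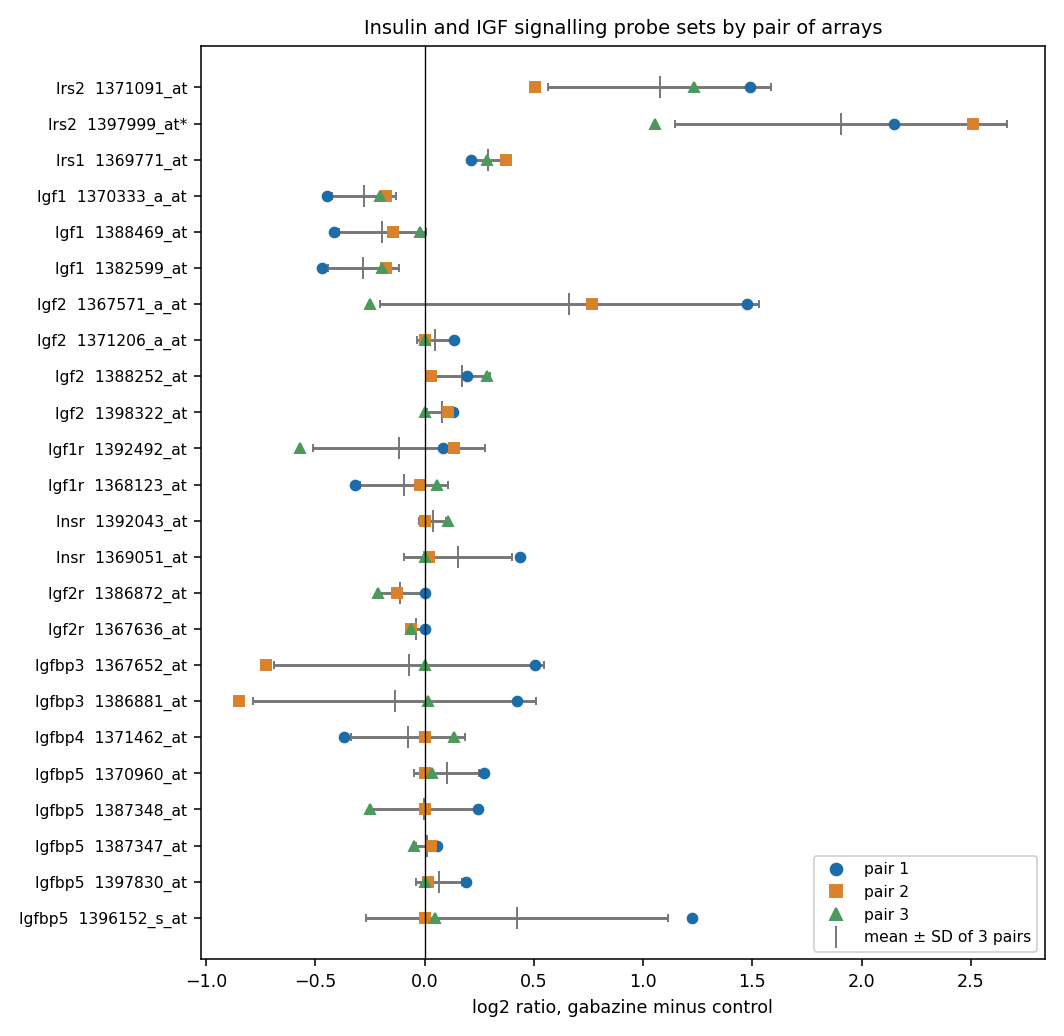
Log2 ratio of gabazine minus control (horizontal axis) for the 23 member probe sets and the unannotated Irs2 probe set, marked with an asterisk (rows), with a symbol for each pair and grey bars for the mean ± SD over 3 pairs. The 2 Irs2 rows lie furthest to the right with means of 1.07 and 1.90, the 3 Igf1 rows lie left of 0 in every pair, and Igf2 and Igfbp3 spread widely between the pairs.

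Irs1, the paralog of Irs2 and the other main docking protein of the insulin and Igf1 receptors, had a smaller log2 ratio in every pair. Its log2 intensity was 7.23, 6.46 and 7.53 on the gabazine arrays of pairs 1, 2 and 3, against 7.02, 6.09 and 7.24 on the control arrays. The groups overlapped, and every gabazine array stood above its own control. The pairs gave 0.21, 0.37 and 0.29, a log2 fold change of 0.29 (standard error 0.05) with a 95% interval of 0.14 to 0.44. In limma it had an unadjusted p of 0.00939 and an adjusted p of 0.747, and its probe set is among the 40% with the lowest mean level on the array. Without pair 3 the unadjusted p was 0.0662. The log2 ratio of Irs2 exceeded that of Irs1 by 1.27, 0.13 and 0.95 in pairs 1, 2 and 3, or by 0.79 ± 0.59 (SD, n = 3). The difference was positive in 3 of 3 pairs, with p = 0.25 in a two-sided exact sign-flip permutation test, which is the smallest p that 3 pairs can give.

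Igf1, a secreted ligand of the Igf1 receptor, had lower values after gabazine on all 3 of its probe sets and in all 3 pairs. On the brightest, 1370333_a_at, the log2 intensity was 12.48, 12.23 and 12.76 on the gabazine arrays of pairs 1, 2 and 3, against 12.92, 12.41 and 12.96 on the control arrays. The groups overlapped, and each gabazine array stood below its own control. The pairs gave -0.45, -0.18 and -0.21, a mean of -0.28 (standard error 0.08) and a ratio of 0.825. The other probe sets read alike, with -0.28 (standard error 0.08) on 1382599_at and -0.19 (standard error 0.10) on 1388469_at. On all 3 the size was largest in pair 1, in which the control transcripts differed between their 5′ and 3′ ends. The part of that in the Igf1 values was not tested. The unadjusted p of limma was 0.0368, 0.0449 and 0.148 on 1370333_a_at, 1382599_at and 1388469_at, and the adjusted p was 0.747 on each. With each array centred on its median, the first 2 of these p-values were 0.0506 and 0.0557, and both were also above 0.05 without pair 2 or without pair 3. Igf1 is also made by microglia, and of 10 microglial marker genes 1 was higher and 2 were lower in every pair. The medians of these markers were -0.11, -0.11 and 0.07 in pairs 1, 2 and 3, and 0.15 for the mean over the pairs. Their summed log2 intensity was 13.71 to 15.56 on gabazine and 13.80 to 15.56 on control arrays. For 7 measured markers of GABAergic interneurons, some of which also make Igf1, the medians were 0.02, -0.11 and 0.0035. For the mean over the pairs the interneuron median was 0.16. The part of either cell type in the Igf1 values was not tested.

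**Figure D2:**
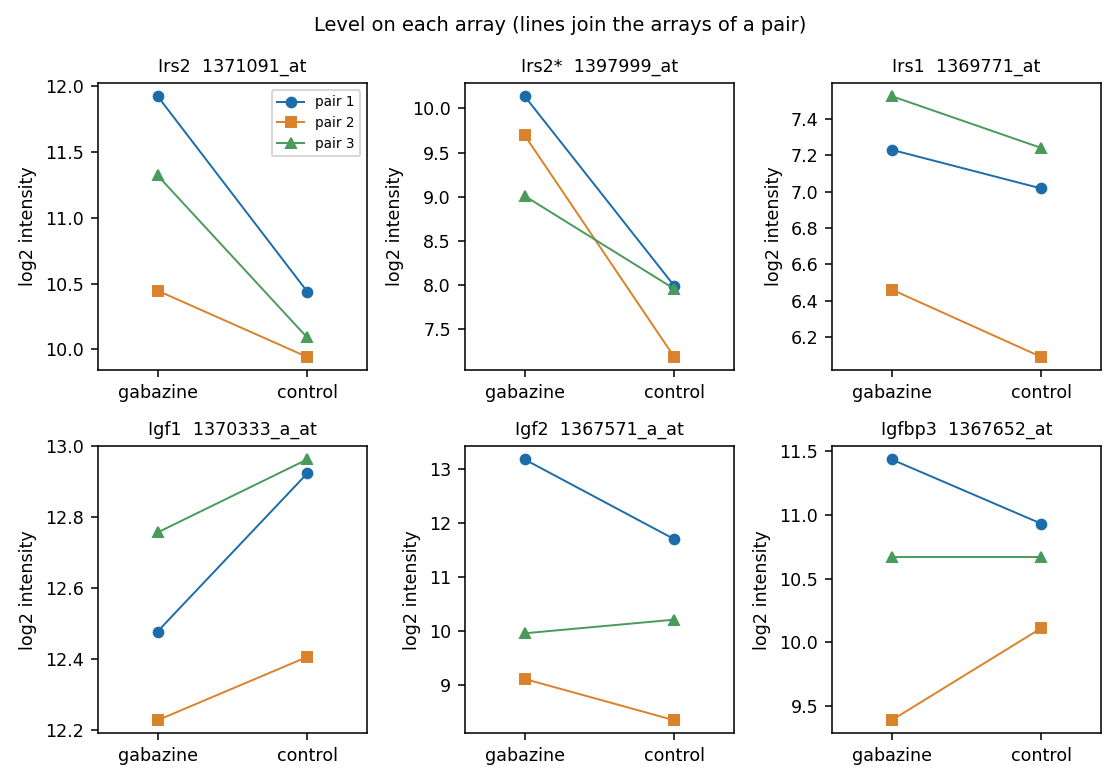
Log2 intensity (vertical axis, with its own range in each panel) on the gabazine and control arrays for Irs2, the unannotated Irs2 probe set (asterisk), Irs1, and the brightest probe sets of Igf1, Igf2 and Igfbp3, with a line joining the arrays of each pair. All lines of Irs2 and Irs1 are higher at gabazine, those of Igf1 are lower, and those of Igf2 and Igfbp3 run both ways.

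Igf2, the fetal growth factor that binds the Igf1 receptor and the Igf2 receptor, differed widely between the replicas. On its brightest probe set, 1367571_a_at, the log2 intensity was 13.18, 9.12 and 9.96 on the gabazine arrays of pairs 1, 2 and 3, against 11.70, 8.35 and 10.21 on the control arrays. Both arrays of pair 1 stood above all others, and the groups overlapped. Relative to the median of each array, the 3 control values had an SD of 1.32, against a median SD of 0.295 over all probe sets and a 90th percentile of 0.629. Gabazine was above control by 1.47 and 0.76 in pairs 1 and 2 and below it in pair 3 (-0.25), which gave a log2 fold change of 0.66 (standard error 0.42) with a 95% interval of -0.68 to 2.00 (limma, unadjusted p = 0.211, adjusted p = 0.747). Without pair 1 the mean was 0.26, and without pair 3 it was 1.12. The other 3 Igf2 probe sets, all among the 40% dimmest of the array, had log2 fold changes of 0.05, 0.17 and 0.08. Of these only 1388252_at was higher in every pair, with 0.19, 0.03 and 0.29.

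Markers of cells that are known to make Igf2 also differed between the pairs. Of 8 measured choroid plexus markers, 7, 6 and 5 were higher in pairs 1, 2 and 3, with medians of 0.38, 0.06 and 0.05. Ttr, the thyroid hormone carrier that defines the choroid plexus, had log2 ratios of 4.59, 0.14 and 0.07. The summed log2 intensity of the list was 12.13 to 13.77 on gabazine and 12.17 to 12.38 on control arrays. By pair the log2 ratio of this sum was 1.60, 0.27 and -0.25. These are the signs of Igf2, but in pair 3 the sign came from Enpp2 alone, at -0.43. Enpp2 was the only marker of the list that was lower there. Of 9 measured markers of meningeal cells or fibroblasts, 8, 7 and 2 were higher in pairs 1, 2 and 3. Their medians of 0.40, 0.75 and -0.31 also had the signs of Igf2 in each pair. Their summed log2 intensity was 12.64 to 14.91 on gabazine and 12.19 to 14.51 on control arrays. By pair its log2 ratio was 0.41, 0.45 and -0.37. The part of these cells in the Igf2 values was not tested.

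**Figure D3:**
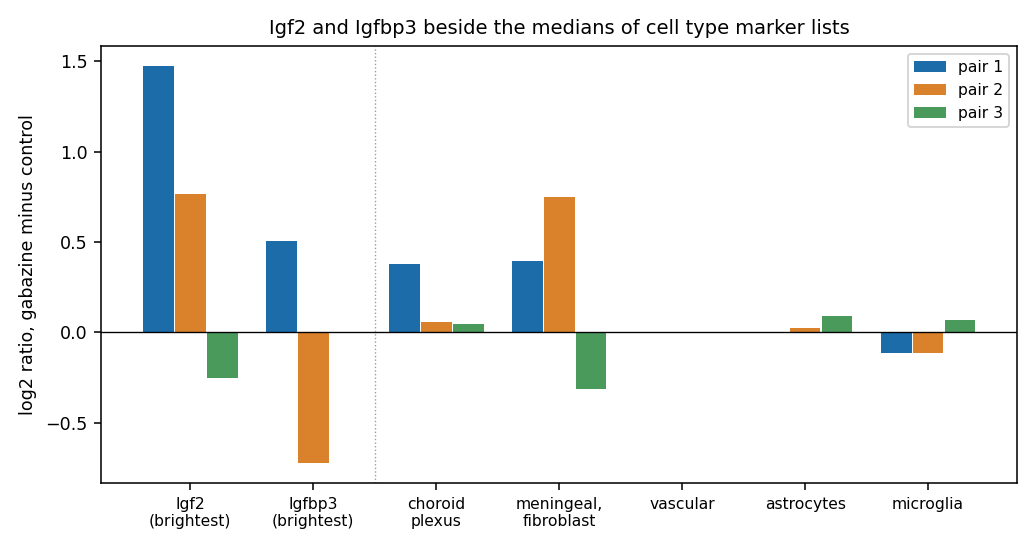
Log2 ratio of gabazine minus control (vertical axis) in each pair of arrays for the brightest probe sets of Igf2 and Igfbp3 (left of the dotted line) and the median log2 ratio of marker lists of 5 cell types (right of it), with 1 bar per pair. Igf2 at 1.47, 0.76 and -0.25 has the same sign as the meningeal or fibroblast median in each pair. It has the sign of the choroid plexus median in pairs 1 and 2, and the vascular medians are 0.

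For the 3 receptors the log2 fold changes ran from -0.12 to 0.15. Igf1r, the receptor of Igf1, averaged -0.12 (standard error 0.19) on 1392492_at, with 0.08, 0.13 and -0.57 in pairs 1, 2 and 3, and -0.09 (standard error 0.10) on 1368123_at, with -0.32, -0.02 and 0.06. The 2 probe sets did not agree on which pair was lowest, and the 95% interval reached from -0.73 to 0.49 on the first and from -0.41 to 0.23 on the second. Insr, the insulin receptor, was tied in 2 pairs on 1392043_at and had 0.11 in pair 3, while 1369051_at had 0.44 and 0.02 in pairs 1 and 2 and a tie in pair 3. Igf2r, which clears Igf2 from the outside of the cell, was tied in pair 1 on both probe sets and had -0.12 and -0.21 in pairs 2 and 3 on 1386872_at, with -0.06 in each of these pairs on 1367636_at. Its log2 fold changes were -0.11 (standard error 0.06) and -0.04 (standard error 0.03), with 95% intervals of -0.30 to 0.08 and -0.15 to 0.07.

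Igfbp3, the main carrier of the IGFs in blood, moved in opposite directions in different pairs. On 1367652_at the log2 intensity was 11.44, 9.39 and 10.67 on the gabazine arrays of pairs 1, 2 and 3, against 10.93, 10.11 and 10.67 on the control arrays. The log2 ratios were 0.51 and -0.72 in pairs 1 and 2, with a tie in pair 3, and 1386881_at gave 0.42, -0.85 and 0.02. The 2 probe sets therefore gave ratios of similar size in each pair, while the mean over the pairs was -0.07 (standard error 0.30) and -0.14 (standard error 0.31). Without pair 2 the means were 0.25 and 0.22. The medians of the meningeal or fibroblast markers were 0.40, 0.75 and -0.31 in pairs 1, 2 and 3. They had the sign of Igfbp3 in pair 1 and the opposite sign in pair 2. In pair 2, 7 of these 9 markers were higher, while Dcn and Lum had -1.24 and -0.29. The part of these cells in the Igfbp3 values was not tested.

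Igfbp4, a binding protein that restrains the IGFs, stood at -0.37 in pair 1 and 0.14 in pair 3 with a tie in pair 2, and averaged -0.08 (standard error 0.13). Igfbp5, a binding protein that attaches to the extracellular matrix, was measured by 5 probe sets with log2 fold changes of -0.0009 to 0.42. The highest was that of 1396152_s_at, the dimmest of them, whose ratio was 1.22 in pair 1, with a tie in pair 2 and 0.05 in pair 3. On the brightest, 1370960_at, the log2 intensity was 10.53, 9.11 and 9.48 on the gabazine arrays, against 10.25, 9.11 and 9.44 on the control arrays of pairs 1, 2 and 3. Only pair 1 differed visibly there, at 0.27. All 5 Igfbp5 probe sets had their highest ratio in pair 1, the pair in which the control transcripts differed between their 5′ and 3′ ends, and the part of that difference in these values was not tested.

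Over the 23 member probe sets, limma called 0 higher and 0 lower at an adjusted p under 0.05, as for all probe sets (0.0% in each direction), where the smallest was 0.467. With an unadjusted p below 0.05, 2 were higher, those of Irs1 and Irs2, against 1.84% of all probe sets, and 2 were lower, both of Igf1, against 2.68%. Higher in all 3 pairs were 3 member probe sets, against 6.92% of all, and lower in all 3 pairs were also 3, the Igf1 ones, against 9.49%. All gabazine arrays stood below all control arrays for 0 members, against 0.0965% of all. By the joint distribution at a share of 0.005, 3 were higher (Irs1, Irs2 and the brightest of Igf2), against 5.42% of all, and 2 were lower (both of Igfbp3, which were low in pair 2 only), against 7.28%. Probe sets of the same gene share their transcript and are not separate evidence. The median log2 fold change was 0.01 over the member probe sets and 0.00 over all probe sets. At the same unadjusted p, leaving out pair 3 left 0 members higher and 0 lower, against 1.48% and 2.08% of all probe sets. Without pair 1 there was 1 higher and 2 lower, against 2.4% and 2.75%, and without pair 2 there were 3 higher and 0 lower, against 2.65% and 4.06%.

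Further genes of the route were read from a list made by role, of which 57 of 63 genes were measured by 100 probe sets. On the brightest probe set of each gene the median log2 fold change was 0.05, 7 genes stood higher and 3 lower in every pair (6.92% and 9.49% of all probe sets), and limma called 0. At an unadjusted p under 0.05, 3 of the 100 probe sets were higher and 1 was lower, against 1.84% and 2.68% of all probe sets, and these were also the brightest of their genes. Among the brakes on the route, Ddit4, an inhibitor of the mTOR kinase that many stresses induce, had 11.84, 10.87 and 10.63 on the gabazine arrays of pairs 1, 2 and 3, against 11.35, 10.11 and 9.99 on the control arrays. The values of the groups overlapped, but each pair showed the same direction, with log2 ratios of 0.49, 0.76 and 0.64 and a log2 fold change of 0.63 (standard error 0.07, limma, unadjusted p = 0.00318, adjusted p = 0.747). Tsc1, a subunit of the complex that holds mTOR in check, had -0.29 (standard error 0.04) with -0.31, -0.22 and -0.33, while its dimmer probe set had 0.16, -0.20 and 0.14. Akt2, a kinase of the insulin route, had 0.33 (standard error 0.08) with 0.47, 0.17 and 0.35, and its other 3 probe sets had 0.08 to 0.59. On 2 of these the ratio was 1.68 and 1.94 in pair 1 and -0.14 and -0.33 in pair 2. Ins1, one of the rat insulin genes, had 0.19 (standard error 0.04). Its level lay below the median of every array. In limma its unadjusted p was 0.0147, and 0.063 after quantile normalization.

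None of these genes passed over all probe sets. Slc2a3, the glucose carrier of neurons, had the next smallest p on the higher side (limma, unadjusted p = 0.0667). It had 0.49, 0.08 and 0.62 in pairs 1, 2 and 3, while its dimmer probe set had 3.30, a tie and 0.02. On the lower side after Tsc1 came Frs2, an adaptor of growth factor receptors, at -0.21 (standard error 0.10). Rictor, a subunit of an mTOR complex, followed at -0.28 (standard error 0.13), and Gab1, a docking protein, at -0.10 (standard error 0.06). The dimmer probe sets of Frs2 and Rictor went the other way, at 0.31 (standard error 0.24) and 0.07 (standard error 0.06). On the brightest probe set of each, the 10 measured adaptors other than the members had a median of -0.02. They ran from -0.21 (Sh2b1) to 0.14, beside 1.07 for Irs2. Dimmer probe sets of Sh2b1 and Grb10 had 0.34 each. On the brightest probe sets again, the 6 measured genes outside the members that were grouped as binding proteins ran from -0.06 (Pappa2) to 0.27 (Igfbp2). Pappa2 is a protease that cuts such proteins and is not a binding protein itself. The 3 measured FoxO factors ran from 0.06 to 0.16 and the 3 proteins that bind Igf2 mRNA from -0.24 to -0.01.

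**Figure D4:**
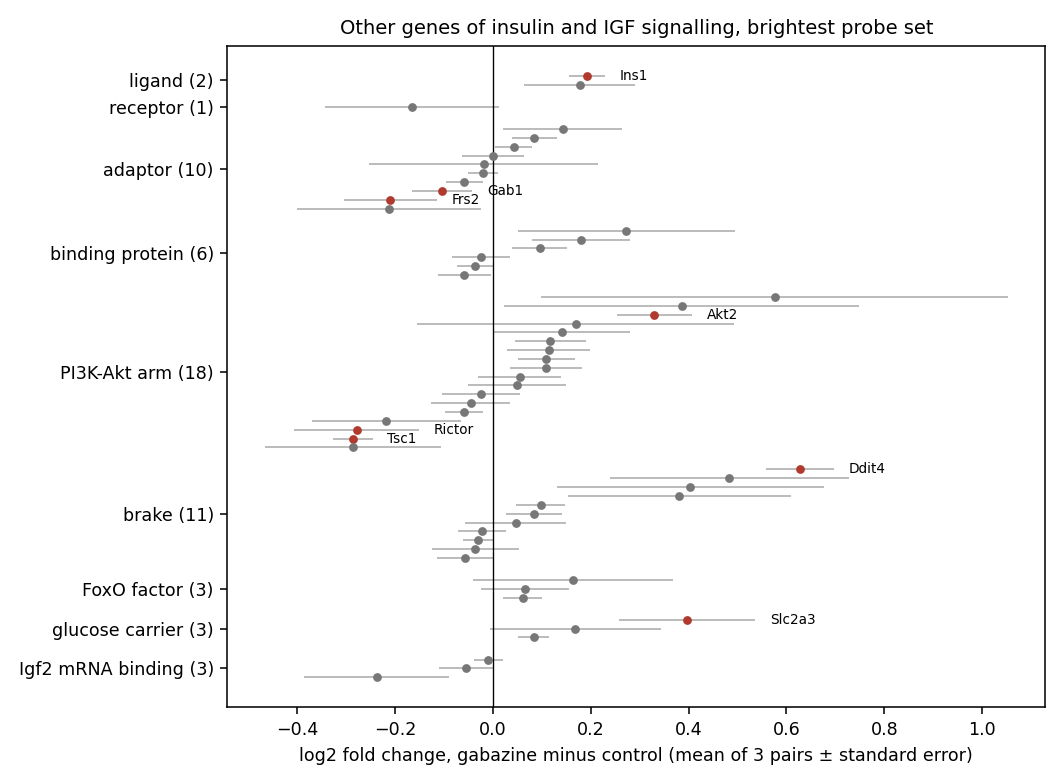
Log2 fold change of gabazine minus control (horizontal axis, mean of 3 pairs ± standard error of limma) on the brightest probe set of 57 further genes of insulin and IGF signalling, grouped by role with the number of genes in brackets. The genes named by rule are in red, with Ddit4 at 0.63 furthest to the right of them and Tsc1 at -0.29 furthest to the left.

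The genes with the pattern most like that of Irs2 were found by the Euclidean distance between the 3 log2 ratios. For 1371091_at the closest were Ppp1r15a, a phosphatase subunit of the stress response, Dusp6, a phosphatase of MAP kinases, Per1, a component of the circadian clock, Btbd8, and Tiparp, an ADP-ribosyltransferase, at distances of 0.32 to 0.48. Ppp1r15a had 1.30, 0.38 and 1.47 in pairs 1, 2 and 3, beside 1.49, 0.50 and 1.23 for Irs2. Pair 2 was the lowest for both. For 1397999_at the closest was Ntrk2, the receptor of Bdnf, at 2.00, 1.90 and 0.41 with a distance of 0.90, followed by Rgs2, Klf2, Btbd3 and Rasgrf1 at 1.22 to 1.32. The 2 Irs2 probe sets shared 0 of their 5 closest genes, and with 3 pairs this likeness is a description only.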

How the data were processed

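RNA of 3 gabazine and 3 control samples was hybridized to 6 RAT2302 arrays of Affymetrix. The deposited log2 intensities are RMA values made by the authors. The sources used here do not give the version of RMA or say whether replicas were normalized together. The platform annotation names 20832 of 31099 probe sets with 1 symbol, 436 with several and none of the other 9831. The values were used without further scaling, and 0 value columns were left out. Linear models with a term for the pair (limma 3.58.1 in R 4.3.3) left 2 residual degrees of freedom. Moderated p-values were adjusted by Benjamini-Hochberg across the whole array and called below 0.05. Pairs follow the methods, in which a replica is set against its own control. Deviations from the group means correlated within pairs at 0.794, 0.664 and 0.853. P-values measure the spread between 3 pairs.

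The members, lists and tests were chosen with earlier results of these data known. All probe sets of members are reported, with the 4 further route genes of smallest p in each direction and the 5 genes closest to each Irs2 probe set. Marker lists covered neurons, glia, vascular, choroid plexus and meningeal cells. Ttr and Enpp2 were named after their values were seen. Alternatives were no pairing, each pair left out, centring, quantile normalization, dim or tied probe sets left out, a trended robust eBayes, the joint distribution of the methods, and the mean of the probe sets of a gene. Sequences are from RefSeq (GRCr8) and the study's primer list.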

Additional observations from a re-analysis of the deposited data

How the results depend on the processing

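The log2 fold change of Irs2 kept its direction under all alternatives run, from 0.87 to 1.36 with each pair left out. The adjusted p of Irs2 stayed above 0.05 in each. Without the replicate block, limma called 14 probe sets higher over the whole array and 0 lower, none of them a member, and 1 member was higher and 0 were lower by unadjusted p, with 1 and 0 of the other route probe sets and 83 and 1 of all 31099. The blocked fit is the one the methods imply. The members lower at that p numbered 0 with arrays centred on their medians (2.39% of all probe sets), 0 with tied probe sets left out (3.18%) and 1 with trend and robust (2.14%), and 1 was higher with the 40% dimmest left out (1.97%), which removes Irs1. With each pair left out, the members ranged from 0 to 3 higher and from 0 to 2 lower, and the other route probe sets from 2 to 7 higher and from 1 to 4 lower, against 461 to 825 higher and 648 to 1262 lower of all 31099.

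Direction turned only for values near 0 or split between pairs. With each pair left out, Igf1r ranged from -0.24 to 0.11 on 1392492_at and from -0.17 to 0.0188 on 1368123_at, Igfbp3 from -0.36 to 0.25 on 1367652_at and from -0.42 to 0.22 on 1386881_at, Igfbp4 from -0.18 to 0.0682, and Igfbp5 from -0.12 to 0.12 on 1387348_at and from -0.0096 to 0.0425 on 1387347_at. Quantile normalization gave 0.0034 on 1387348_at and -0.0172 on 1387347_at, and centring gave -0.0018 on the second. For the mean over the pairs the vascular median was -0.0566 in the main fit. It was -0.0712 after centring, -0.0786 after quantile normalization, 0.24 over 2 brighter genes and 0.63 over 1 untied gene. The choroid plexus median was 0.16 in the main fit and 0.41 over 4 brighter genes. With each pair left out, the medians ranged from -0.0899 to -0.0181 for vascular cells, from 0.0066 to 0.22 for interneurons and from 0.0020 to 0.13 for microglia. The cause of the other shifts was not tested. With 6 arrays and no background measure, the signal over background of the 9 member probe sets among the dimmest is not known.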
